A study of Mus musculus with 20 samples.

Results

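The genes described here code for the pyruvate dehydrogenase complex, the kinases and the phosphatase that switch it, and the mitochondrial pyruvate carrier. They are 10 of the 14700 genes listed over the study's tables, chosen by symbol: Pdk1, Pdk2, Pdk3, Pdha1, Pdhb, Dlat, Dld, Pdp1, Mpc1 and Mpc2. All 10 were present in each of the 4 tables. RNA was sequenced from cultured mouse neurons, isolated from cortices at embryonic day 15 and grown for 7 days, with C57BL/6N-Cdr1asem1Nikr given as the strain of every sample. Cultures were wild type (WT) or lacked ciRS-7 (KO), a circular RNA listed in the tables as Cdr1as. They then spent 12 h in normoxia (N), in medium given glucose at 25 mM and sodium pyruvate at 0.2 mM, or were deprived of oxygen and glucose (OGD), with 1% oxygen and medium to which neither was added. Normoxic and deprived cells thus differed in oxygen, glucose and pyruvate together, and the parts of the 3 cannot be told apart. The labels give neither how the animals were bred nor how many embryos a culture held.

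Pyruvate, the end product of glycolysis, enters mitochondria through a carrier built from the proteins of Mpc1 and Mpc2. There the pyruvate dehydrogenase complex turns it into acetyl-CoA for the tricarboxylic acid cycle: E1 (Pdha1 and Pdhb) removes carbon dioxide, E2 (Dlat) passes the acetyl group over a lipoyl arm, and E3 (Dld) reoxidises that arm. Pyruvate dehydrogenase kinases (Pdk genes) phosphorylate E1 and shut the complex down, and phosphatases such as the product of Pdp1 switch it on again. Pdk1 is a textbook target of hypoxia-inducible factor, the transcription factor of the response to low oxygen, and neurons normally burn pyruvate through this complex.

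Each of the 4 groups, written N_WT, OGD_WT, N_KO and OGD_KO, had 5 libraries. Counted over the listed genes, a library held from 7071603 reads to 16657766 reads. The values are log2 CPM, the base-2 logarithm of read counts set relative to library size (CPM), as the authors scaled them, and 1 unit is a doubling. The deposited values had been clipped within each gene and group of 5, as inferred from the values, and are used with that clipping undone. A gene was called changed where limma, a linear model with a shared estimate of the spread, gave a Benjamini-Hochberg adjusted p under 0.05 over all genes of the table. The exact permutation test of 5 against 5 libraries is two-sided and cannot give a p below 0.00794. A normoxic and a deprived library that share a number also share genotype label and batch, and are called a culture, WT1 to WT5 and KO1 to KO5. The values did not bear out this pairing. Over genes, the deviations of same-numbered libraries from their group means correlated at −0.643 to 0.057 in WT and −0.79 to −0.065 in KO. Changes per culture below therefore rest on the labels alone. No label says that the cultures came from separate animals, so p-values measure the spread between these cultures, which may be technical.

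Cdr1as had 700 to 1365 reads in N_WT against 5 to 16 reads in N_KO, and 545 to 1912 reads in OGD_WT against 2 to 14 reads in OGD_KO. All 12 neuron markers examined were present, among them Map2 and Tubb3, while none of 9 microglia markers was in the tables of either genotype. Astrocyte markers (9 of 10, S100b absent) and markers of dividing cells (10 of 10) were present too. So were 8 of 10 oligodendrocyte lineage markers (Mog and Mag absent) and 3 of 8 endothelial and mural markers. Under OGD, 21.6% of all genes rose and 22.8% fell in WT, and 21% rose and 19.9% fell in KO. Of the neuron markers 7 of 12 fell in WT and 8 of 12 in KO, and none rose. Their summed level was 5420 to 6854 CPM in N_WT and 3338 to 6348 CPM in OGD_WT. Of the astrocyte markers 5 rose and 1 fell in WT and 4 rose in KO, with summed levels of 1458 to 1931 CPM in N_WT and 2262 to 2914 CPM in OGD_WT. All 10 markers of dividing cells rose in both genotypes, from 567 to 740 CPM in N_WT to 1045 to 1820 CPM in OGD_WT. Of the oligodendrocyte lineage markers 1 rose and 2 fell in WT and 3 rose in KO. Their summed levels were 288 to 357 CPM in N_WT and 325 to 487 CPM in OGD_WT. Of the endothelial and mural markers 2 rose and 1 fell in WT and 2 rose in KO, at summed levels of 3.94 to 7.23 CPM in N_WT. These shifts moved with every OGD result below, and their part in the results was not tested. In bulk RNA, fewer cells of a type and less RNA per cell cannot be told apart.

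Culture WT5 stood apart from the other WT cultures, and the 3 cultures of batch 3.1 (WT5, KO2 and KO4) stood apart from the other 7. Their normoxic libraries had the 3 highest mean levels of 14 hypoxia-inducible factor targets, 4.30 to 4.42 log2 CPM against 3.29 to 3.87 in the other 7. Under OGD the same mean was 5.44 to 6.08 in batch 3.1 and 6.11 to 6.85 in the other 7. Slc2a1, the glucose transporter GLUT1 and a target on that list, still rose in WT5, from 2.83 to 5.52 log2 CPM. OGD results that rest on these cultures are given with and without them, a split chosen after the values were seen.

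Under OGD the kinases Pdk1 and Pdk3 rose, while Dlat, the E2 subunit, and the phosphatase gene Pdp1 fell, in both genotypes. The Pdp1 call was the least firm of these. Under alternative fits it was lost in 12 and kept in 11 in WT, and lost in 5 and kept in 18 in KO. In WT 2 of the 10 genes rose (Pdk1 and Pdk3), 2 fell (Dlat and Pdp1) and 6 did not pass the test. Of all 14235 genes tested in WT 21.6% rose and 22.8% fell, so the members were called about as often as other genes. The KO cultures gave the same 4 calls, where 21% of 14375 genes rose and 19.9% fell. The median log2 fold change of the 10 genes was −0.19 in WT and −0.18 in KO, against −0.03 and 0.0027 over all genes. At an unadjusted p under 0.05 there were 5 of 10 members in WT, beside 7315 of all 14235 genes, and 6 of 10 in KO, beside 7116 of 14375 genes, so the members again stood near the share of other genes.

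**Figure D1:**
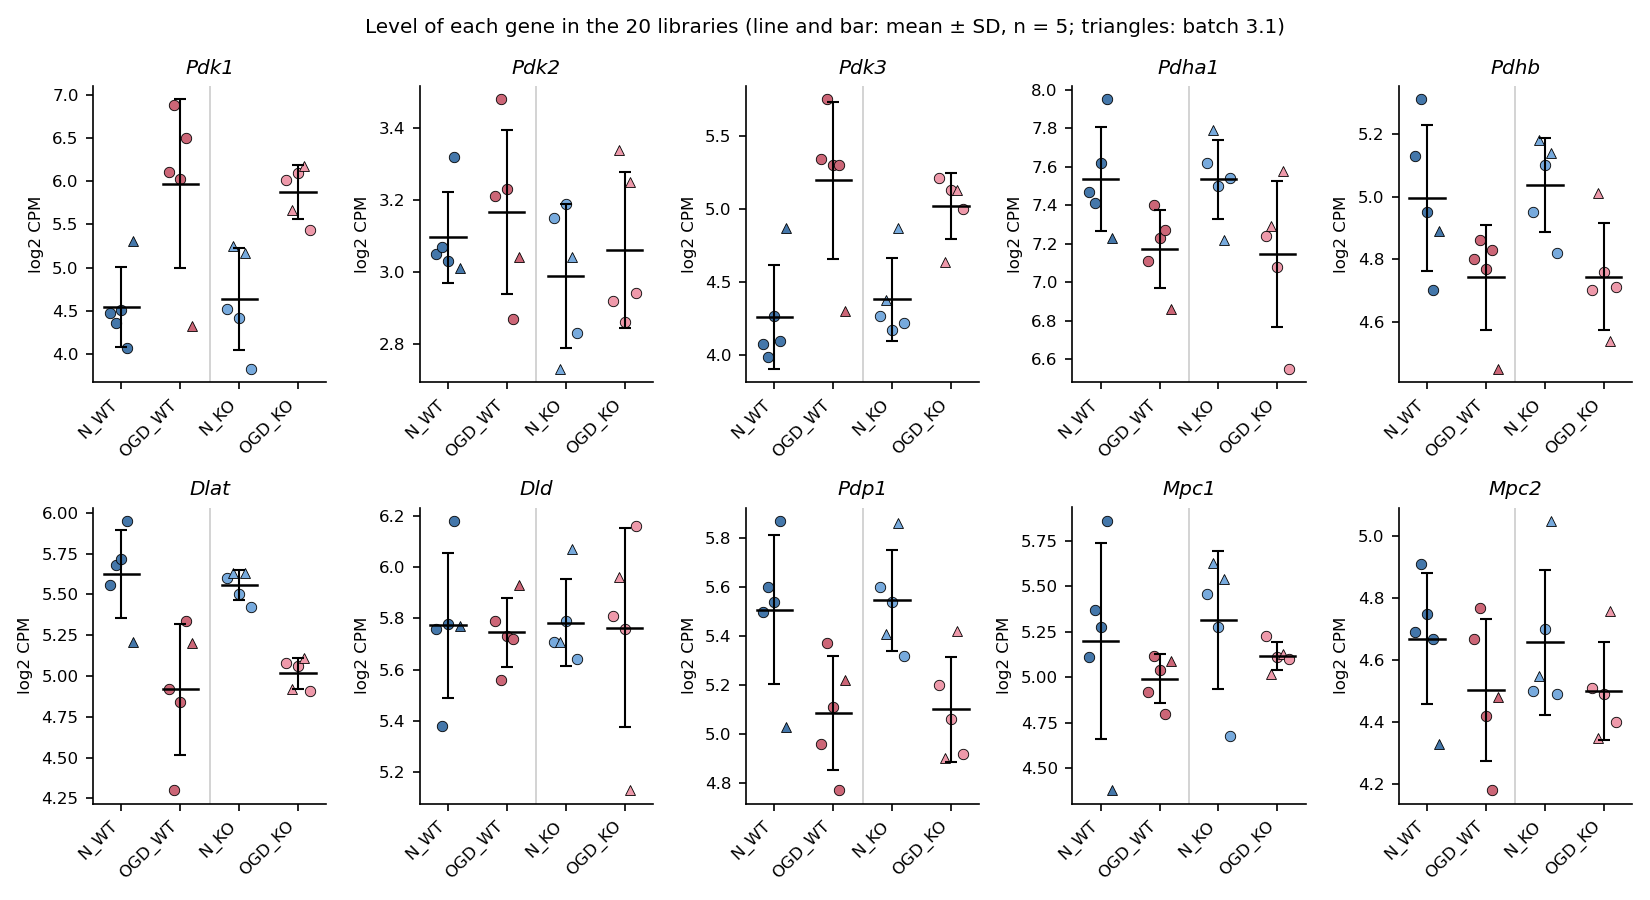
Level of each gene (log2 CPM, vertical axis, a different range in each panel) in the 20 libraries by group; black lines and bars are the mean ± SD of 5 libraries and triangles are batch 3.1. Pdk1 and Pdk3 are higher under OGD in both genotypes except for the WT triangle (WT5), Dlat and Pdp1 are lower on average, and Pdk2 and Dld overlap throughout. WT and KO values come from separately scaled tables.

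Pdk1 showed the largest change of the members. It lies at chr2:71873224-71903858 on the forward strand of GRCm38 (mm10), the build named in the submitters' processing notes. In N_WT it was at 4.47, 4.36, 4.51, 4.07 and 5.31 log2 CPM in cultures WT1 to WT5, and in OGD_WT at 6.11, 6.88, 6.02, 6.50 and 4.33. The values of WT1 to WT4 under OGD lay above all normoxic values, but that of WT5 lay below that culture's own normoxic value and made the groups overlap. The log2 fold change was 1.42 ± 0.32 (SE), a 2.68-fold rise (limma adjusted p = 0.00102; exact permutation p = 0.0397, n = 5). The change was 1.51 to 2.52 in WT1 to WT4 and −0.97 in WT5. Without both libraries of WT5 the log2 fold change was larger, at 2.02.

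In N_KO Pdk1 was at 4.52, 5.25, 4.42, 5.17 and 3.83 log2 CPM in KO1 to KO5, and in OGD_KO at 6.01, 5.67, 6.09, 6.18 and 5.44. All 5 deprived values lay above all 5 normoxic ones. This is a log2 fold change of 1.24 ± 0.23 (SE; limma adjusted p = 0.000288; exact permutation p = 0.00794, n = 5). KO2 and KO4, the batch 3.1 cultures, had the highest normoxic values and the smallest rises, 0.42 and 1.01, against 1.48 to 1.68 in the other 3. Without those cultures the log2 fold change was 1.59, and with batches 1 and 2 left out it was 1.02 (limma adjusted p = 0.0107). Pdk1 and Dlat were the only members whose KO groups did not overlap, Pdk1 higher and Dlat lower. Over all genes, 13.4% were higher and 12.4% lower without overlap, in KO, and 13.9% and 13.1% in WT, where no member had separate groups.

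Pdk3, another kinase of E1, lies at chrX:93764607-93832201 on the reverse strand. It was at 4.08, 3.99, 4.27, 4.10 and 4.87 log2 CPM in N_WT and at 5.34, 5.75, 5.30, 5.30 and 4.30 in OGD_WT, cultures WT1 to WT5. As for Pdk1, WT5 was highest in normoxia, lowest under OGD and the only culture that went down, with a change of −0.57. Over the 5 cultures the log2 fold change was 0.94 ± 0.22 (SE; limma adjusted p = 0.00136; exact permutation p = 0.0159, n = 5), and 1.31 without WT5. In KO1 to KO5 Pdk3 was at 4.27, 4.38, 4.17, 4.87 and 4.22 in N_KO and at 5.21, 4.64, 5.13, 5.13 and 5.00 in OGD_KO. Each KO culture rose, by 0.26 in both KO2 and KO4 and by 0.78 to 0.96 in the others, and the groups overlapped through KO2 and KO4. That gave a log2 fold change of 0.64 ± 0.16 (SE; limma adjusted p = 0.00383; exact permutation p = 0.0159, n = 5). Within the 3 KO cultures of batches 3.1 and 3.3 it was 0.43 and not called (limma adjusted p = 0.363), and without batch 3.1 it was 0.89.

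**Figure D2:**
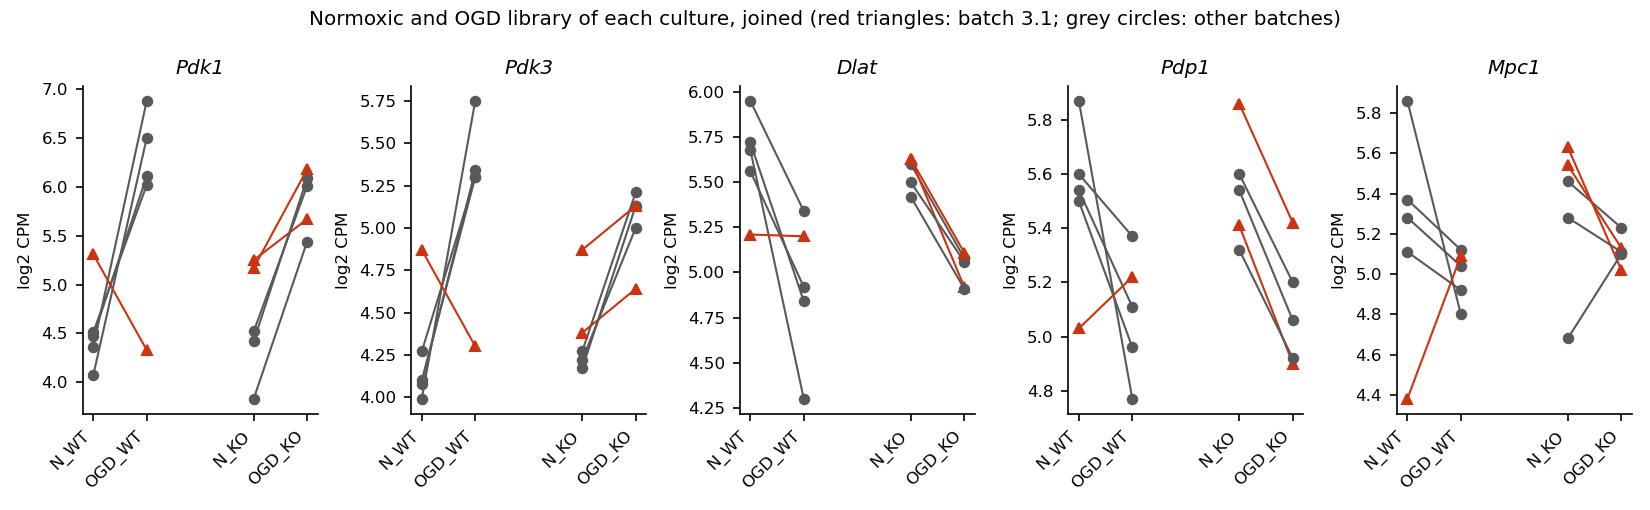
Normoxic and OGD library of each culture joined by a line for 5 genes (log2 CPM), with batch 3.1 in red triangles and the other batches in grey circles. For Pdk1 and Pdk3 the WT line of batch 3.1 slopes down while the other 4 slope up, and the KO lines of batch 3.1 start high and rise least. For Dlat all 5 KO lines fall by 0.44 to 0.71.

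Pdk2, the third kinase in the tables (chr11:95026258-95041354, reverse strand), was at 3.01 to 3.32 log2 CPM in N_WT, median 3.05, and at 2.87 to 3.48 in OGD_WT, median 3.21. Its groups overlapped in both genotypes. Its log2 fold change was 0.07 ± 0.15 (SE) in WT and 0.07 ± 0.16 (SE) in KO (limma adjusted p = 0.744 and 0.726), and its sign flipped with some cultures left out. Pdk4, the remaining kinase of the family, was in the table of OGD_KO against OGD_WT only, with 1 to 28 reads in OGD_KO and 8 to 16 in OGD_WT.

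Set per kilobase of annotated exon, Pdk3 was the most abundant kinase transcript. In N_WT it stood at 9.12 ± 2.57 CPM per kb (SD, n = 5), against 4.63 ± 1.7 for Pdk1 and 3.63 ± 0.353 for Pdk2, whose ranges overlapped. Pdk1 made up 26.1% ± 3.64 (SD, n = 5) of the summed level of the 3 in N_WT and 36.7% ± 8.45 in OGD_WT, where WT5 was at 23.3% and the others at 35.7% to 44.7%. In KO the Pdk1 share was 26.9% ± 6.64 in N_KO and 37.6% ± 3.68 in OGD_KO (SD, n = 5). Pdk2 held 21.8% ± 5.14 in N_WT and 12.1% ± 5.29 in OGD_WT, and Pdk3 held 52.1% ± 2.38 and 51.3% ± 3.47 (SD, n = 5). The order and the shares rest on annotated exon lengths of 5.185 kb for Pdk1 and 2.115 kb for Pdk3. Without that scaling the mean of Pdk1 was above that of Pdk3, at 4.55 against 4.26 log2 CPM in N_WT. In OGD_WT it was 5.97 against 5.20. No test was run on the shares.

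**Figure D3:**
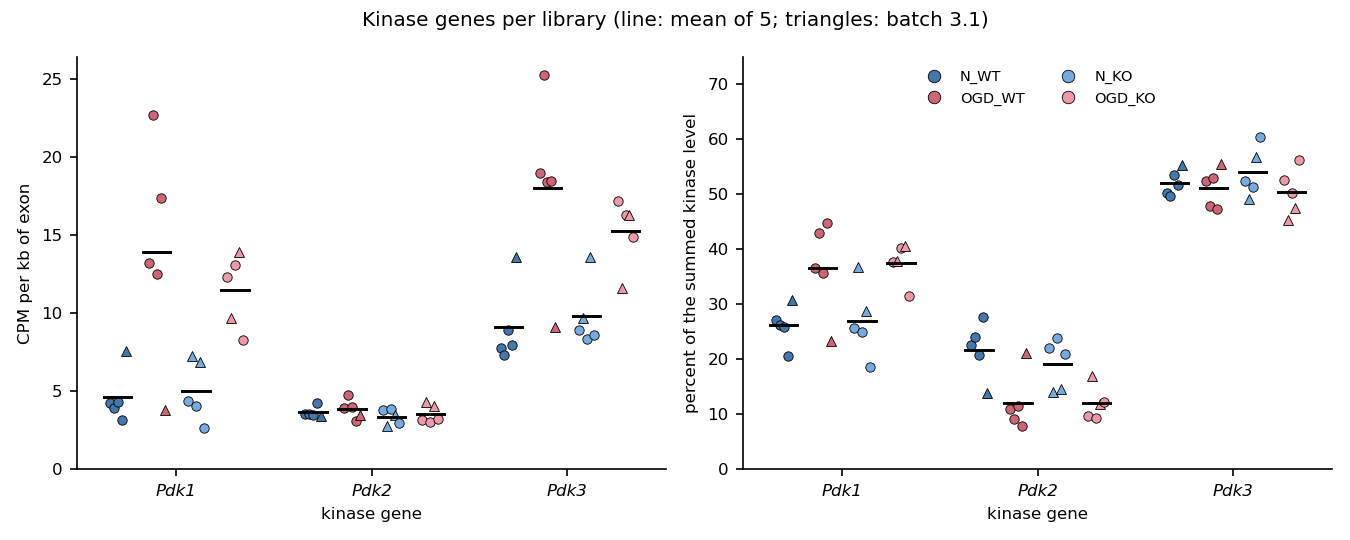
Kinase transcripts per library and group as CPM per kb of exon (left) and as percent of the sum of the 3 kinases (right); lines are means of 5 libraries and triangles are batch 3.1. Pdk1 and Pdk3 are higher under OGD, Pdk2 is level near 3.63 CPM per kb, and the share of Pdk1 is larger and that of Pdk2 smaller under OGD.

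The hypoxia-inducible factor binds DNA at ACGTG or GCGTG, and the stretches upstream of the members were searched for these 5 letters on both strands, in the 250 bases before the start given by RefSeq (GRCm38.p6). Of 32851 such promoters 16.6% held ACGTG, 28.2% held GCGTG and 38.6% held either. The table had promoters for 9 of the 10 members, all but Pdp1, and 7 of these genes held either motif in a promoter. That count is per gene and the shares above are per promoter, so the 2 are not on the same unit. Pdk1, Pdk2 and Mpc1 each had a further listed promoter without either motif. The 250 bases searched for Mpc1 and Mpc2 lay inside the annotated gene. The promoters of the 2 kinases that rose and of Dlat, which fell, are shown 5′ to 3′ on the gene's own strand, with each motif in capitals (CACGC is GCGTG read on the other strand).
Pdk1, chr2:71872974-71873223, forward strand: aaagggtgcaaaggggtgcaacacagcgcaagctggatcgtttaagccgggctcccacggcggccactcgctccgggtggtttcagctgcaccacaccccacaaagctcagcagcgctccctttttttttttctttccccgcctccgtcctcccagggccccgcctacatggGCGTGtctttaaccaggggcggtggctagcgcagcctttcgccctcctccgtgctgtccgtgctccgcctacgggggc
Pdk3, chrX:93832202-93832400, reverse strand: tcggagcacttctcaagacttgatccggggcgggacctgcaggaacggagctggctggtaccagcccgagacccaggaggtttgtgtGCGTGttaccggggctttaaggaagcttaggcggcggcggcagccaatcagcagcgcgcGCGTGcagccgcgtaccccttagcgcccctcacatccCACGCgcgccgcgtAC
Dlat, chr9:50659781-50660030, reverse strand: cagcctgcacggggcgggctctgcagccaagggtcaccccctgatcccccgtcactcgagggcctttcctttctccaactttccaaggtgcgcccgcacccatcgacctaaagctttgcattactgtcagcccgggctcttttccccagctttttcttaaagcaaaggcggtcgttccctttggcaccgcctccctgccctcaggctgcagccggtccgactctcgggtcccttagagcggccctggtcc
The Pdk1 promoter shown held a single GCGTG, 78 bases before its start. Pdk3 held GCGTG 163, 104 and 67 bases before its start and ACGTG 53 bases before it; its stretch is printed only up to the annotated end of the gene, and the last capitals begin that ACGTG. Dlat held neither in this window. The motif was also present at genes that were not called, such as Pdha1 with 3 GCGTG, so a match describes the letters and no binding was measured.

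Pdp1, the phosphatase that removes the kinases' mark from E1, lies at chr4:11958184-11966452 on the reverse strand. It was at 5.50, 5.60, 5.54, 5.87 and 5.03 log2 CPM in N_WT and at 4.96, 5.37, 5.11, 4.77 and 5.22 in OGD_WT, cultures WT1 to WT5. WT1 to WT4 were lower under OGD and WT5 was higher by 0.18, and the groups overlapped. As a log2 fold change this was −0.42 ± 0.16 (SE; limma adjusted p = 0.0388; exact permutation p = 0.0476, n = 5). The call was lost with the culture as a replicate block (limma adjusted p = 0.0759), within batches 3.1 to 3.3 (0.142) and without OGD_WT replicate 1, 3 or 4 or N_WT replicate 1, 2, 3 or 4 (0.0669 to 0.108). Of whole cultures, leaving out WT5 gave −0.58 and leaving out WT4 gave −0.26, not called (limma adjusted p = 0.194), and the call was also lost without WT1 (0.142) or WT3 (0.131).

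In KO1 to KO5 Pdp1 was at 5.60, 5.41, 5.54, 5.86 and 5.32 log2 CPM in N_KO and at 5.20, 4.90, 5.06, 5.42 and 4.92 in OGD_KO. Every culture was lower under OGD, with changes of −0.40 to −0.51, although the culture levels differed enough for the groups to overlap. The log2 fold change was −0.45 ± 0.15 (SE; limma adjusted p = 0.0218; exact permutation p = 0.0238, n = 5), and it was not called within batches 3.1 and 3.3 (limma adjusted p = 0.344), without OGD_KO replicate 3 (0.0547), without N_KO replicate 1 (0.0543) or without culture KO1 (0.0805) or KO3 (0.108). The other phosphatase gene, Pdp2, and the phosphatase regulator Pdpr were not called in either genotype, with log2 fold changes of −0.24 and −0.23 in WT and −0.24 and −0.22 in KO.

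Kinase and phosphatase can be set against each other within a library. Pdk1 minus Pdp1, a difference of log2 CPM values without correction for length, was −1.02, −1.24, −1.03, −1.80 and 0.27 in N_WT and 1.15, 1.51, 0.91, 1.73 and −0.88 in OGD_WT. It changed sign between conditions in all 5 WT cultures, in WT5 in the reverse direction. In KO it was −0.91 ± 0.51 (SD, n = 5) in N_KO and 0.78 ± 0.18 in OGD_KO, negative in all 5 normoxic and positive in all 5 deprived libraries. Pdk3 minus Pdp1 was −1.25 ± 0.63 in N_WT and 0.11 ± 0.59 in OGD_WT (SD, n = 5). In KO that pair was −1.17 ± 0.18 and −0.08 ± 0.18 (SD, n = 5), with OGD_KO values from −0.29 to 0.08. Both pairs set a kinase called higher against a phosphatase called lower in these same data, so their shifts follow from those calls.

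Of the 4 E1, E2 and E3 subunit genes among the 10, Dlat (E2, which carries the lipoyl arm) was the one called lower, and called in both genotypes. It lies at chr9:50634633-50659780 on the reverse strand. It was at 5.56, 5.68, 5.72, 5.95 and 5.21 log2 CPM in N_WT and at 4.92, 4.30, 4.84, 5.34 and 5.20 in OGD_WT, cultures WT1 to WT5. WT1 to WT4 were lower under OGD, with changes of −0.60 to −1.38, WT5 was level (−0.01), and the groups overlapped through its low normoxic value. Their log2 fold change was −0.70 ± 0.18 (SE), 1.63-fold lower (limma adjusted p = 0.00341; exact permutation p = 0.0159, n = 5), and −0.88 without WT5.

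Dlat varied little between KO cultures. It was at 5.60, 5.63, 5.50, 5.63 and 5.42 log2 CPM in N_KO and at 5.08, 4.92, 5.06, 5.11 and 4.91 in OGD_KO, with a gap between the groups. This amounts to a log2 fold change of −0.54 ± 0.13 (SE), 1.46-fold lower (limma adjusted p = 0.0024; exact permutation p = 0.00794, n = 5). Within batches 3.1 and 3.3 it was −0.58 and not called (limma adjusted p = 0.197).

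Pdha1, the E1 subunit that the kinases phosphorylate (chrX:160122209-160138413, reverse strand), was the most abundant member. It was at 7.47, 7.41, 7.62, 7.95 and 7.23 log2 CPM in N_WT and at 7.11, 7.40, 7.23, 7.27 and 6.86 in OGD_WT. Every WT culture was lower under OGD, with changes from −0.68 to −0.01, but the groups overlapped. The log2 fold change of −0.36 ± 0.16 (SE) missed the threshold (limma adjusted p = 0.0646; exact permutation p = 0.0317, n = 5), and passed it with the culture as a replicate block (0.0457), without OGD_WT replicate 2 (0.0402), without culture WT2 (0.0423) and without N_WT replicate 5 (0.0289). With a library left out it ran from −0.44 to −0.26. In KO it was −0.38 ± 0.18 (SE; limma adjusted p = 0.0929); KO4, of batch 3.1, was higher by 0.36. It was called at −0.49 without OGD_KO replicate 4 (0.0339), at −0.57 without culture KO4 (0.0189) and at −0.60 without batch 3.1 (0.031). It was −0.23 and not called without OGD_KO replicate 5 (0.231) or without culture KO5 (0.245). Exons of Pdha1 overlap 603 bases of Map3k15 on the opposite strand, and the strand setting of the counting is not given in the sources used here.

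Pdhb, the other E1 subunit (chr14:8165996-8173025, reverse strand), was at 4.70 to 5.31 log2 CPM in N_WT, median 4.95, and at 4.45 to 4.86 in OGD_WT, median 4.80. The log2 fold change was −0.26 ± 0.15 (SE) in WT and −0.29 ± 0.14 (SE) in KO, not called in either (limma adjusted p = 0.171 and 0.0979), although all 5 KO cultures were lower. Without OGD_KO replicate 2 the KO value was −0.36 and called (limma adjusted p = 0.0399). Of its 50-base words 10.87% also occur in other genes, so part of its count is uncertain. Dld, the E3 subunit that other dehydrogenase complexes share (chr12:31331277-31351453, reverse strand), was at 5.38 to 6.18 in N_WT, median 5.77, and at 5.56 to 5.93 in OGD_WT, median 5.73. Its log2 fold changes were −0.03 ± 0.15 (SE) in WT and −0.02 ± 0.17 (SE) in KO, with 3 of 5 cultures higher in each. Of these 4 subunit genes Dld had the smallest difference and Dlat the largest.

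Pdhx, the protein that tethers E3 to the E2 core, is not among the 10 but belongs to the complex. Its log2 fold change was −0.41 ± 0.18 (SE; limma adjusted p = 0.0646) in WT, where WT5 was higher by 0.46, and −0.63 and called without that culture (0.000609), as it was without its OGD (0.0172) or its normoxic library (0.0117) alone. It was closer to 0 without culture WT2 (−0.18, limma adjusted p = 0.388) and without the normoxic library of WT2 alone (−0.28, 0.201). In KO Pdhx fell by 0.53 ± 0.15 (SE; limma adjusted p = 0.00906), from 4.99 to 5.73 log2 CPM in N_KO to 4.54 to 4.92 in OGD_KO, without overlap. The KO call was lost without batch 3.1 (−0.37, limma adjusted p = 0.0536), without culture KO3 (0.0621) and within batches 3.1 and 3.3 (0.203).

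Both carrier genes stayed below the threshold. Mpc1 (chr17:8282904-8297661, forward strand) was at 5.11, 5.37, 5.28, 5.86 and 4.38 log2 CPM in N_WT and at 4.92, 5.12, 5.04, 4.80 and 5.09 in OGD_WT. The normoxic values spread from 4.38 to 5.86 and the deprived ones from 4.80 to 5.12, so the groups differed more in spread than in mean. The change was −1.06 in WT4 and 0.71 in WT5. The log2 fold change was −0.21 ± 0.20 (SE; limma adjusted p = 0.41) in WT, −0.44 and called without WT5 (0.0198), −0.41 and called without N_WT replicate 5 alone (0.041), −0.04 without N_WT replicate 4 and 0.01 without WT4. In KO it was −0.20 ± 0.17 (SE; limma adjusted p = 0.35), with 4.68 to 5.63 in N_KO and 5.02 to 5.23 in OGD_KO. It was −0.36 without N_KO replicate 5 and −0.12 without N_KO replicate 2, called in neither.

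Mpc2 (chr1:165460637-165481214, forward strand) was at 4.33 to 4.91 log2 CPM in N_WT, median 4.69, and at 4.18 to 4.77 in OGD_WT, median 4.48. Its log2 fold changes were −0.17 ± 0.15 (SE) in WT and −0.16 ± 0.15 (SE) in KO, with 1 of 5 cultures higher in each. With a library left out they ran from −0.25 (without N_WT replicate 5) to −0.09 (without OGD_WT replicate 4) in WT and from −0.22 (without OGD_KO replicate 4) to −0.06 (without N_KO replicate 4) in KO, none of them called. Mpc1 shares 11.03% of its 50-base words with other genes, a pseudogene named Mpc1-ps among them, and overlaps 480 bases of 4930506C21Rik on the opposite strand.

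**Figure D4:**
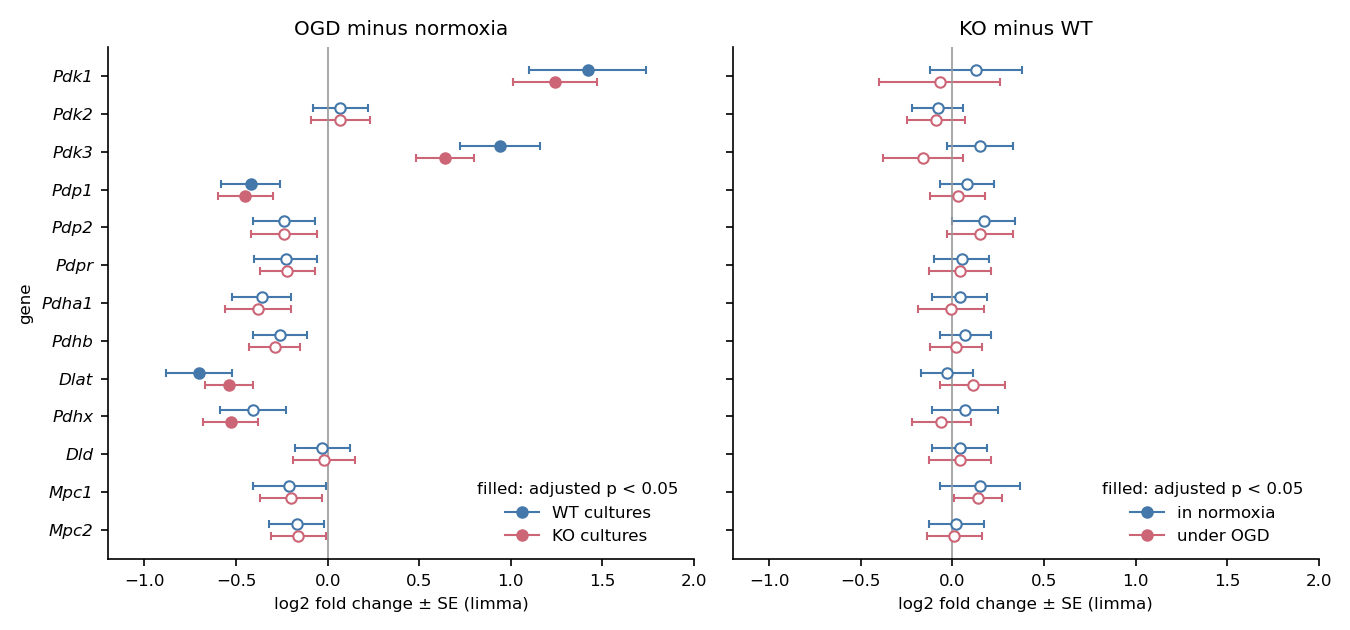
Log2 fold change ± SE from limma for the 10 members and Pdhx, Pdp2 and Pdpr, OGD against normoxia (left, WT and KO cultures) and KO against WT (right, in normoxia and under OGD); filled points have an adjusted p under 0.05. On the left Pdk1, Pdk3, Dlat and Pdp1 are filled in both genotypes and Pdhx in KO; on the right no point is filled.

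Per kilobase of exon the order of the 10 genes in N_WT was Pdha1 (65.9 ± 13 CPM per kb), Mpc1 (26.1 ± 9.12), Mpc2 (24.6 ± 3.48), Dld (21.7 ± 4.32), Pdhb (21.1 ± 3.49), Dlat (12.3 ± 2.21), Pdp1 (10.2 ± 2.05), Pdk3, Pdk1 and Pdk2 (SD, n = 5). Pdha1 stood clear of Mpc1, its range of 52.4 to 86.7 lying above 13.9 to 39.2. Mpc1, Mpc2, Dld and Pdhb overlapped, and so did Dlat, Pdp1 and Pdk3. Under OGD the order shifted for the kinases: in OGD_WT Pdk3, at 18.1 ± 5.78 CPM per kb, ranked 5 and Pdk1, at 13.9 ± 6.96, ranked 7, ahead of Dlat at 7.63 ± 2 and Pdp1 at 7.52 ± 1.21 (SD, n = 5). Dlat stood above both of those kinases' means in N_WT and below them in OGD_WT, with WT5 among the overlapping libraries.

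None of the 10 genes was called between KO and WT cultures. In normoxia 0 of 10 were called, against 0.0353% of 14152 genes, and the fitted log2 differences of KO against WT ran from −0.08 (Pdk2) to 0.15 (Pdk3 and Mpc1), with SEs of 0.14 to 0.25. Under OGD 0 of 10 were called, against 0.0282% of 14185 genes, with differences from −0.16 (Pdk3) to 0.14 (Mpc1) and SEs of 0.13 to 0.33. No member had an unadjusted p under 0.05 in either, where 256 and 253 genes of all had. Pdk1 was at 4.79 ± 0.59 log2 CPM in N_KO and 4.66 ± 0.46 in N_WT, and at 5.74 ± 0.32 in OGD_KO and 5.82 ± 0.98 in OGD_WT (SD, n = 5), on the scale of those tables. Its difference under OGD, −0.07 ± 0.33 (SE), has an error several times its own size.

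The smallest exact permutation p among these differences belonged to Mpc1 under OGD, at 4.86 to 5.10 log2 CPM in OGD_KO and 4.66 to 4.96 in OGD_WT. The groups overlapped, and the difference of 0.14 ± 0.13 (SE) was not called (limma adjusted p = 1; exact permutation p = 0.0714, n = 5). KO and WT cultures of the same number were of different batches except number 1. With the batch as a covariate no member was called in either condition. Batch 2 held only KO3 and batch 3.2 only WT3, so genotype and batch were partly confounded. That fit compares the genotypes within batches 1, 3.1 and 3.3 only.

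The OGD response itself was compared between genotypes by the interaction in limma over all 20 libraries, fitted on 13688 genes. No gene was called (0%), and 100 genes but no member had an unadjusted p under 0.05. The difference of responses, KO minus WT, ran from −0.31 ± 0.31 (SE) for Pdk3 to 0.15 ± 0.26 for Dlat, with −0.19 ± 0.48 for Pdk1. The SEs were 0.23 to 0.48, and differences well above an SE could also go uncalled. WT5 weighed on these values: without that culture's number in WT the Pdk1 difference was −0.78 and that of Pdk3 −0.67, neither called (limma adjusted p = 1).

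Beyond the 10 genes, lists of neighbouring steps were read in the same fits, from upstream to downstream. Each count is to be read beside all genes, of which 21.6% rose and 22.8% fell in WT. In KO 21% of all genes rose and 19.9% fell. A count near these shares is no result about its list. Among 14 genes of pyruvate production and its other fates 7 rose and 1 fell in both genotypes, with medians of 0.42 in WT and 0.45 in KO. Ldha, which turns pyruvate into lactate, rose by 1.81 in WT and 1.52 in KO. Pkm, pyruvate kinase, rose by 1.03 and 0.79, and Pcx, which turns pyruvate into oxaloacetate, by 0.50 and 0.54. Slc16a7, the lactate and pyruvate transporter MCT2, fell by 1.56 and 1.49.

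Lipoate, the cofactor on Dlat, is made inside mitochondria. Of 13 genes of its synthesis and attachment none rose and 5 fell in WT (median −0.43), and none rose and 3 fell in KO (median −0.23). Over all genes 21.6% rose and 22.8% fell in WT, and 21% rose and 19.9% fell in KO. Oxsm, which elongates the fatty acid precursor, dropped by 1.09 in WT and by 1.03 in KO, and Nfu1, an iron-sulphur carrier for lipoate synthase, fell by 0.66 and 0.50. Lias, the synthase, had values of −0.10 in both genotypes and was not called. For thiamine, the cofactor of E1, the uptake transporter Slc19a2 rose by 1.55 and 1.41, and the other 2 genes listed and present were not called.

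Downstream, 2 of 17 genes of the tricarboxylic acid cycle rose and 4 fell in both genotypes. The shares over all genes were 21.6% and 22.8% in WT and 21% and 19.9% in KO. Idh2, the NADP-linked isocitrate dehydrogenase, rose by 1.22 in WT and 1.31 in KO. Fh1, fumarase, fell by 0.70 and 0.75. Cs, citrate synthase, which takes up acetyl-CoA, had values of −0.11 and −0.17 and was not called. The sister complexes for other 2-oxoacids had 2 falls among 9 genes in WT and 2 falls and 1 rise in KO. Ogdhl fell by 0.51 and 0.48 and Ogdh by 0.44 and 0.49. Ogdh and Dlst are on the cycle list as well, so the fall of Ogdh is counted in both.

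Of 16 genes of mitochondrial import and housekeeping 4 rose and 3 fell in WT (median 0.05), and 3 rose and 1 fell in KO. Among all genes 21.6% rose and 22.8% fell in WT, and 21% rose and 19.9% fell in KO. Hspa9, the matrix chaperone, rose by 0.81 and 0.85, and Tomm70a, an import receptor, fell by 0.66 and 0.74. All 14 hypoxia-inducible factor targets listed and present rose in both genotypes, with medians of 2.29 in WT and 1.90 in KO, and Slc2a1 rose most, by 3.95 and 3.50. The rise of Pdk1 was smaller than the median of these targets in each genotype. Ldha is counted both among these targets and among the genes of pyruvate production and its other fates. Of 5 further regulators and subunits none was called in WT, while in KO Pdhx fell and Sirt4, a mitochondrial sirtuin, rose by 0.54 (0.46 in WT, not called).

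**Figure D5:**
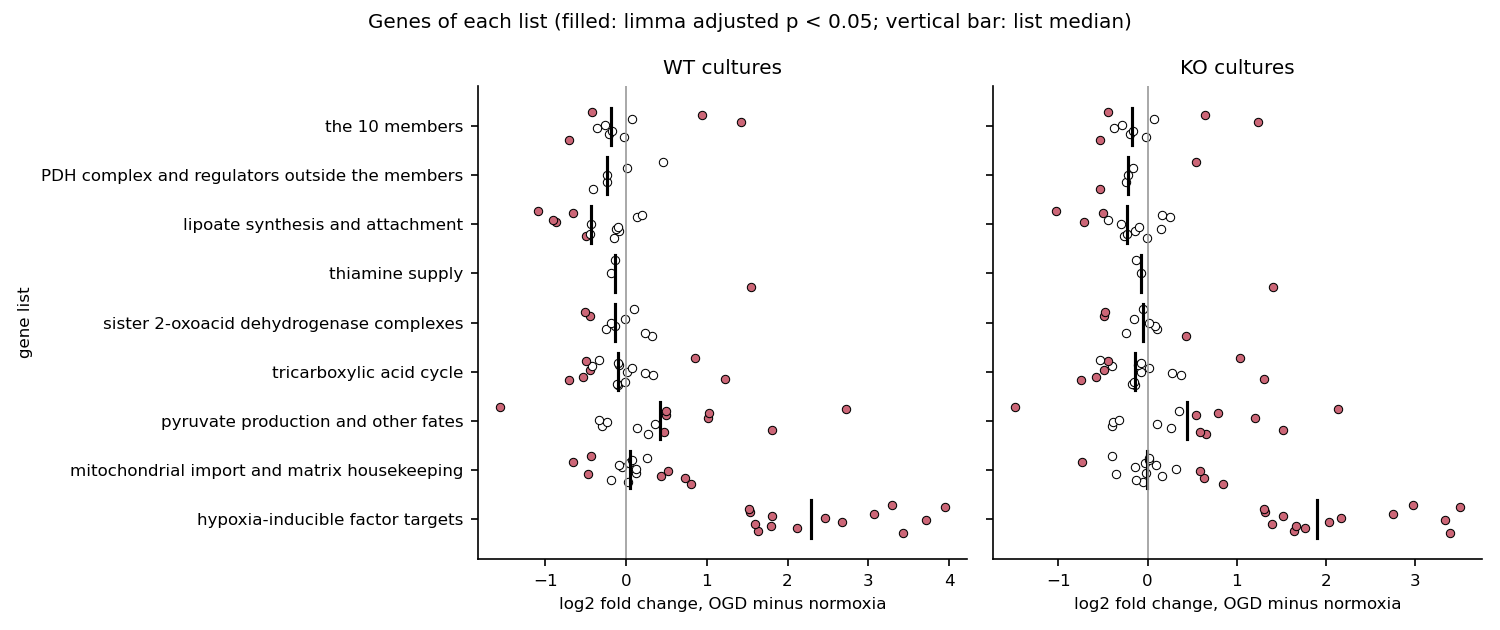
Log2 fold change under OGD of every listed gene (points; filled where the limma adjusted p was under 0.05) in WT (left) and KO cultures (right); vertical bars are list medians. The 10 members lie between −0.70 and 1.42 in WT with a median of −0.19, while all 14 hypoxia-inducible factor targets lie to the right, with medians of 2.29 and 1.90.

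Across the 20 libraries on a joint scale, Pdk1 and Pdk3 followed each other most closely of the kinases, with a Pearson r of 0.92 over all libraries and 0.88 after subtracting each group's mean. Pdp1 followed the carrier genes, with r of 0.92 to Mpc2 and 0.85 to Mpc1, and 0.83 and 0.78 within groups. Pdha1 and Pdhb, which form E1 together, had r of 0.70 over all libraries and 0.15 within groups. The libraries differ in depth and batch, which can move genes together, so these values describe the 20 libraries only.

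Among 12686 genes the 5 whose levels were most like those of Pdk1 were Kbtbd11 (r = 0.967), Frem2 (0.942), Seh1l (0.941), Fam162a (0.941) and Rps25 (0.94). For Pdha1 they were Acp2, Xkr4, Rab1a, Negr1 and Spop, with r of 0.951 to 0.961. For Mpc1 they were Manbal, Nolc1, Prdm4, Zfp703 and Psmd12, with r of 0.9 to 0.925.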

How the data were processed

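The authors deposited 4 tables of log2 CPM, 1 per comparison, each with 10 libraries and 14152 to 14375 genes. Per the labels' protocols, total RNA was made into libraries with a strand-specific kit; the processing notes name mm10. Aligner, counting, strand setting, gene filter and scaling are not given in the sources used here. No label states the clipping: the extremes of each gene and group had been pulled to percentiles 10 and 90, a mix of 0.6 of the extreme and 0.4 of its neighbour. As deposited, 45.5% to 92.78% of a library's values were whole reads within 0.05 reads, for genes of up to 500 reads, and at least 99.909% were with clipping undone.

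Each comparison was fitted in its own table (limma 3.58.1 with trend, R 4.3.3; Python 3.11.15), without block or batch. Levels set across tables are on separately scaled tables. The interaction used recovered reads as log2 CPM with a prior count of 2 and the culture as random block (correlation −0.169). Fits were also run on simulated data, with no outcome given here. For the interaction the simulated paired libraries shared a culture effect, unlike the negative correlation found here. Same-numbered N and OGD libraries share genotype label and batch. Their deviations from the group mean correlated at −0.643 to 0.057 in WT and −0.79 to −0.065 in KO. The highest correlation with a library of another number was 0.097 to 0.221 in WT and 0.111 to 0.198 in KO. It was above the same-number value each time, but the highest of several values often exceeds a single one, so this alone decides nothing. The same-number values were mostly negative and give no support to the pairing. Exon lengths are from GENCODE M21 (GRCm38).

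Alternatives were clipping kept, a replicate block, batch as covariate, median centring, a mean log2 CPM of at least 1, log2(CPM + 1), voom weights, batches 3.1 to 3.3 only, and leaving out libraries. Leaving out whole cultures or batch 3.1, and all alternatives for the kinase shares, were added after seeing the data. Named genes were the members, their direct partners, Cdr1as, from each list the called gene with the largest rise and fall in WT at a mean of at least 1 log2 CPM, and the 5 genes most like Pdk1, Pdha1 and Mpc1; further list genes were named after their values were seen. The members and lists were chosen with earlier results of these data known.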

Additional observations from a re-analysis of the deposited data

Results flagged for a closer look

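Of 40 sets of 5 libraries (10 genes in 4 groups), 2 held a library far from the other 4, by a gap above 0.71 of the range, as Dixon's test sets for 5 values; chance gives about 1 in 20, here 2. Pdk2 in N_WT was at 3.32 log2 CPM in replicate 4, against 3.01 to 3.07 in the others. Pdhb in OGD_WT was at 4.45 in replicate 5, of culture WT5, against 4.77 to 4.86 in the others. Neither gene was called under OGD.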

How the results depend on the processing

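Pdk1, Pdk3 and Dlat kept their direction and their call under OGD in WT under every alternative run, and Pdk1 did so in KO. The count of members called was 3 to 6 in WT and 3 to 5 in KO with a library left out, against 4. As deposited it was 5 in WT, with Pdha1 added, and 6 in KO, with Pdha1 and Pdhb added, where the count of all genes called also went up, from 6313 to 8280 of 14235 in WT and from 5884 to 8024 of 14375 in KO. With only batches 3.1, 3.2 and 3.3, which leaves 3 KO cultures, it was 1 in KO (Pdk1), and 2341 genes in all against 5884. The replicate block ended the call of Pdp1 in WT (adjusted p = 0.0759) and gave one to Pdha1 (0.0457), and changed no other call of a member. Without a library of either group, Pdp1 in WT ran from −0.54 to −0.33, called in 3 of 10 fits.

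Signs flipped only for values never called in that comparison's main fit. Leaving out a library gave −0.01 to 0.14 for Pdk2 and −0.13 to 0.07 for Dld in WT, and −0.12 to 0.14 for Dld in KO. Without whole cultures, Pdk2 was −0.02 without WT2 and −0.06 without KO2, Dld was 0.08 without WT4 and 0.21 without KO4, and Mpc1 was 0.01 without WT4. Without batch 3.1, KO values were −0.15 for Pdk2, 0.20 for Dld and 0.01 for Mpc1. As deposited, Dld in KO was 0.03. For KO against WT, Pdk1 was −0.13 in normoxia and 0.11 under OGD with the batch as covariate. With a library left out it ran from −0.03 to 0.33 and from −0.49 to 0.15, and Mpc1 in normoxia from −0.05 to 0.32. The interaction ran from −0.78 to 0.08 for Pdk1 and from −0.02 to 0.35 for Dlat.

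No member was called for genotype or interaction under any alternative. Over all genes, 5 were called for genotype in normoxia and 2 to 11 under the alternatives (as deposited 9, replicate block 3, batch covariate 11), and 4 under OGD, with 1 to 17 (12, 2 and 17). KO and WT samples of the same number share only that number, and for number 1 the batch as well. Their same-number deviations correlated at −0.071 to 0.242 in normoxia and −0.207 to 0.238 under OGD. The causes of these changes were not tested. With 5 cultures per group and SEs of 0.13 to 0.33, differences well above those errors could also go uncalled.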
